A study of Thermothelomyces thermophilus ATCC 42464 with 4 samples.

Results

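Methylated cytosines of Myceliophthora thermophila lay mostly in dense blocks, and the sites described here are those outside them. The sparse windows were 22756 of the 33326 windows of 1 kb that held any listed cytosine, and 22756 of all 38747 windows on the 7 chromosomes. They were chosen by the number of listed cytosines alone: at least 1 in some library and fewer than 10 in each of the 4 libraries. Although they made up 58.7% of all windows, they held 54546 of the 2693648 distinct listed cytosines, or 2.02%. The remaining listed cytosines lay in 10570 dense windows, with 10 or more in at least 1 library, and 5421 windows held none. Because listings selected the windows, the numbers of listings below are descriptions without a test.

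The lists came from whole-genome bisulfite sequencing of mycelium grown for 24 h on glucose. Strain ΔlaeA is a mutant of laeA, the gene of a putative methyltransferase that regulates many genes in filamentous fungi, and was set against the wild-type (WT) strain, with 2 libraries each. The sample titles and the study describe ΔlaeA as a deletion made by putting a resistance marker in place of the coding region, whereas its genotype label speaks of a knockdown. No label says whether the libraries of a strain came from separate cultures, so the spread between them may be technical. The lists contain called cytosines only, each with at least 5 reads, at least 2 methylated reads and a level of at least 5%, where the level is the percentage of reads that still show C after bisulfite treatment. Depth at listed sites had a median of 56 reads in ΔlaeA 1 and 47 in ΔlaeA 2, against 55 in WT 1 and 59 in WT 2.

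In filamentous ascomycetes, of which Neurospora crassa is the best studied, cytosine methylation is concentrated in AT-rich, repeat-derived DNA and is scarce in active genes. A cytosine followed by G (CG) faces another CG cytosine on the opposite strand, so both strands of such a pair can carry the mark. CHG sites are also symmetric, and CHH sites are not (H stands for A, C or T). The context, strand and gene position of a site were not used to select the windows. Its level entered through the listing alone, which needs at least 5%, so numbers of listings and levels are linked.

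The sparse sites were thinly spread. A sparse window held 2.40 distinct sites on average and 2 in the median, and 7773 windows (34.2%) held a single site over all 4 libraries. The number of libraries with a listing was 1 for 9911 windows, 2 for 8319, 3 for 3660 and 4 for 866. The highest number of sites in any single library was 1 or 2 in 20519 windows (90.2% of the sparse windows), and it was between 5 and 9 in 182. At the limit of the rule, 20 windows reached 9 sites in some library, with a median of 24 listings summed over the libraries (range 11 to 32). Just outside it, 6 windows reached 10 sites, with a median of 24.5 summed listings (range 18 to 34). The threshold therefore divided few windows, and those on its sides had similar totals.

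Most sparse windows were far from dense methylation. The median distance to the nearest dense window was 35 kb, the greatest was 509 kb, and 14789 windows (65.0%) were more than 20 kb away. Only 651 (2.86%) directly adjoined a dense window and are called adjoining here, and the other 22105 are called isolated. Distances of the 5421 windows without a listed site were not measured, so these values are not shown to be particular to sparse windows. The share that adjoined depended on how many sites a window held. By the highest number of sites in any library, it was 2.40% of windows with 1 site, 4.40% of those with 4, 16.5% of those with 5, and 67.1% (53 of 79) of those with 6 to 9. The density over sequence outside dense windows differed little between chromosomes, from 1827 distinct sites per Mb on chromosome 5 to 1978 per Mb on chromosome 7.

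The number of listings varied between libraries more than between strains. Sparse windows contributed 19132 sites to ΔlaeA 1 and 10270 to ΔlaeA 2, against 13074 to WT 1 and 13082 to WT 2. These were 0.947%, 0.541%, 0.647% and 0.640% of each library's list. The mean was 14701 ± 6266 in ΔlaeA and 13078 ± 5.66 in WT (SD, n = 2 each), a difference of 1623 that was smaller than the gap between the ΔlaeA libraries, whose values lay on both sides of the WT values. The sign of the difference rested on ΔlaeA 1, since without it the difference was -2808 and without ΔlaeA 2 it was 6054.

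The excess in ΔlaeA 1 consisted of cytosines listed on 2 methylated reads, the fewest a listing can have. Such sites made up 78.0% and 33.3% of the sparse sites in ΔlaeA 1 and ΔlaeA 2, against 50.2% and 53.0% in WT 1 and WT 2. When at least 3 methylated reads were required, ΔlaeA 1 had the fewest sparse sites rather than the most, with 4203, ΔlaeA 2 had 6846, and WT 1 and WT 2 had 6507 and 6144. The depth up to which 2 methylated reads sufficed for a call also differed. The deepest CHH site listed on 2 methylated reads had 40 reads in ΔlaeA 1 and 33 in ΔlaeA 2, against 33 in WT 1 and 35 in WT 2. It was lower for CG sites, at 29 and 23 reads in the ΔlaeA libraries and 24 and 26 in the WT libraries. The part of these limits in the counts was not tested.

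Very few sparse sites recurred between libraries. Of the 54546 distinct sites, 53814 (98.7%) were in 1 list, 513 (0.940%) in 2, 158 (0.290%) in 3 and 61 (0.112%) in all 4. In dense windows the corresponding shares were 17.6%, 14.7%, 17.5% and 50.3%. A total of 732 sparse sites, or 1.34%, were therefore seen in 2 or more libraries, against 82.4% of dense sites. The share of a library's sparse sites found in any other library was 2.20% in ΔlaeA 1 and 4.08% in ΔlaeA 2, against 3.4% in WT 1 and 3.51% in WT 2. Fewer listings per window go with the rule itself, so this contrast with dense windows is not a test.

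**Figure D1:**
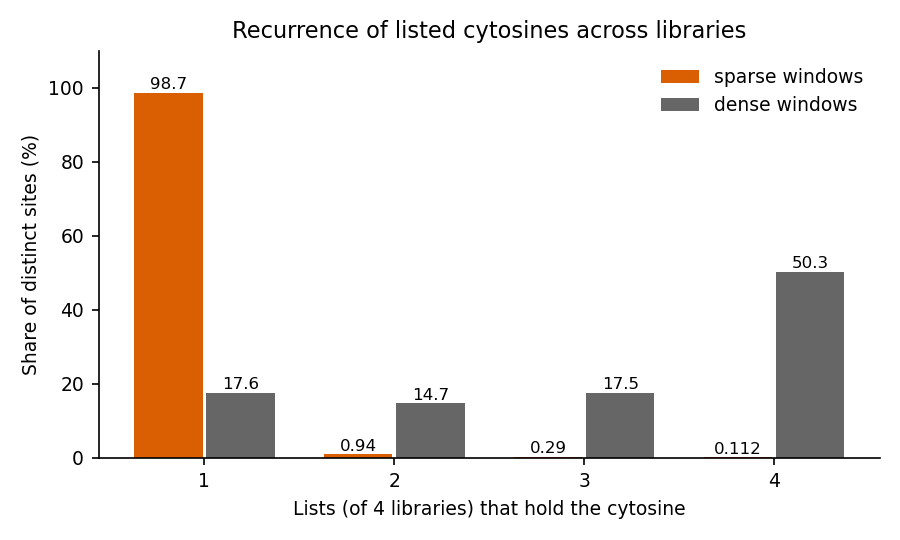
Bars give the percentage of distinct listed cytosines (vertical axis) found in 1, 2, 3 or 4 of the libraries (horizontal axis), in sparse windows (orange, 54546 sites) and dense windows (grey, 2639102 sites). Of the sparse sites 98.7% were in a single list, while 50.3% of the dense sites were in all 4.

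Recurrence was spread over all combinations of libraries. Of the 513 sites in exactly 2 lists, 76 were shared by the ΔlaeA libraries and 108 by the WT libraries. Each of the 4 combinations of a ΔlaeA library with a WT library held between 73 and 87 sites, 329 in total. Sites in exactly 3 lists numbered between 36 and 43 for each of the 4 possible combinations. Sites listed in both libraries of the same strain and in neither of the other were thus 76 and 108 of these 513. An unlisted site may lack reads or miss a calling limit, so it is not shown to be unmethylated. The same combinations were not counted among dense sites, so these numbers are descriptions.

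Recurrence was more frequent at sites with more methylated reads. In the 4 libraries, between 0.938% and 2.07% of sparse sites with 2 methylated reads were in another list, and between 2.70% and 3.01% of those with 3. The range was 13.5% to 25.1% at 4 methylated reads and 60.9% to 68.6% at 5 to 9. Of the 32 listings with 10 or more methylated reads, all but 1, in WT 1, were at a cytosine listed elsewhere too. Dense sites recurred far more at the same number of reads: between 75.3% and 84.1% of those with 2 methylated reads and between 95.6% and 98.2% of those with 5 to 9. A dense and a sparse site with equally few methylated reads thus differed in how often another library listed them, in each of the 4 libraries. The rule limits the listings of a sparse window in every library, so this contrast is not a test either.

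**Figure D2:**
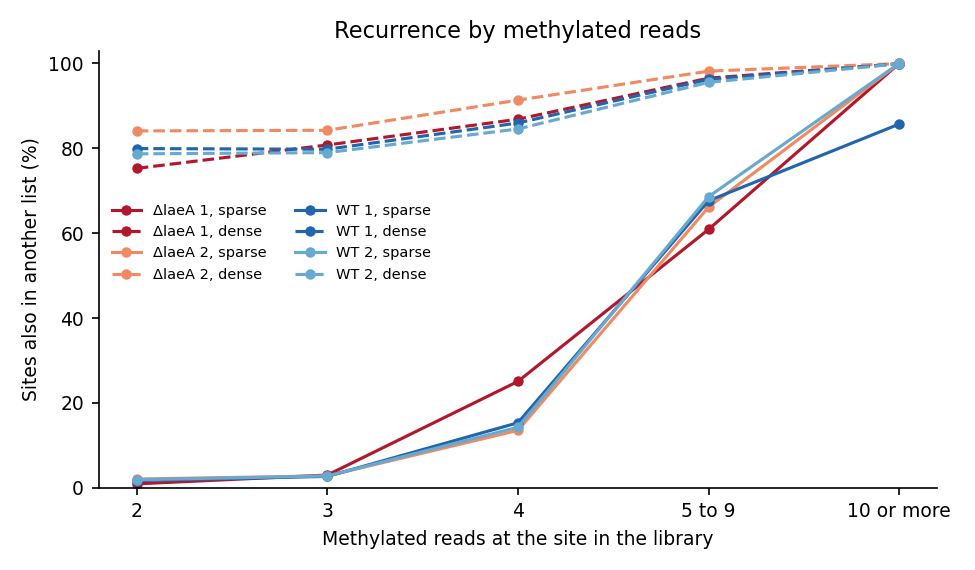
Each line is 1 library, with solid lines for sparse sites and dashed lines for dense sites. The horizontal axis gives the methylated reads at a site in that library and the vertical axis the percentage of such sites that were also in another list, which for sparse sites was at most 3.01% up to 3 methylated reads and at least 60.9% from 5.

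Well-supported sparse sites were few in all libraries. Sites with 5 or more methylated reads numbered 142 in ΔlaeA 1 and 139 in ΔlaeA 2, against 143 in WT 1 and 144 in WT 2. The sum was similar although the total of sparse sites ranged from 10270 to 19132, but its parts were not. In adjoining windows, such sites numbered 86 and 55 in ΔlaeA 1 and ΔlaeA 2, against 71 and 72 in WT 1 and WT 2, and outside them 56 and 84 in the ΔlaeA libraries, against 72 in each WT library. Sites with a level of 20% or more numbered 73 and 64 in the ΔlaeA libraries and 81 and 74 in the WT libraries, at most 0.623% of a library's sparse sites, against 22.9% to 23.7% of dense sites. The level reached 50% at 1 site in ΔlaeA 1, a CHH site on chromosome 7 with 5 of 10 reads methylated, and at 1 site in ΔlaeA 2, a CG site on chromosome 1 with 3 of 6. The adjusted p-values of the deposited calls had medians of 0.00684 and 0.00193 over sparse sites of ΔlaeA 1 and ΔlaeA 2, and 0.00312 and 0.00329 over those of WT 1 and WT 2, near the calling limit of 0.01. How many of the listings are chance calls was not tested.

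Levels at sparse sites were low. The pooled level, the methylated reads of all sparse sites over all their reads, was 6.41% in ΔlaeA 1 (Wilson 95% interval 6.36% to 6.47%) and 6.52% in ΔlaeA 2 (6.45% to 6.60%). It was 6.86% in WT 1 (6.79% to 6.93%) and 6.69% in WT 2 (6.62% to 6.76%). The intervals cover counting error only. The ΔlaeA libraries were both below the WT libraries, with means of 6.47% ± 0.0773 and 6.77% ± 0.120 (SD, n = 2 each). The difference was -0.305 percentage points, with p = 0.333 in an exact two-sided permutation test, the smallest value that 2 libraries against 2 can give, and an adjusted p of 0.333 over the 7 values tested this way or over pairs. With at least 3 methylated reads required, the difference shrank to -0.00175 percentage points. Different cytosines stood behind the level in each library, and their median depth was 35 and 45 reads in the ΔlaeA libraries, against 33 and 34 in the WT libraries.

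Against dense sites of the same library, sparse sites had a lower level in 4 of 4 libraries. A cytosine is listed only from a minimum level, so this comparison is not independent of the rule that chose the windows. Dense sites had pooled levels of 14.5% in ΔlaeA 1 and 14.7% in the other libraries. The difference, sparse minus dense, averaged -8.03 ± 0.130 percentage points (SD, n = 4 libraries), with p = 0.125 in an exact two-sided sign-flip permutation test. That is the smallest p that 4 pairs allow, and it became 0.175 after adjustment. The same p and adjusted p were obtained for the other comparisons of this kind below, each of which had the same sign in all 4 libraries. The median depth of sparse sites over that of dense sites, minus 1, averaged -0.313 ± 0.181 (SD, n = 4), and -0.0832 when at least 3 methylated reads were required.

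Sparse sites lay in genes far more often than dense sites. In ΔlaeA 1 and ΔlaeA 2, 70.5% and 65.9% of sparse sites lay inside annotated genes, and in WT 1 and WT 2 67.3% and 69.0%, against 2.90% to 2.94% of dense sites. The difference averaged 65.2 ± 2.01 percentage points (SD, n = 4; exact p = 0.125). The windows themselves differed in the same direction, since genes covered 64.8% of the bases of sparse windows, 3.72% of those of dense windows and 53.5% of those of windows without a listed site. Relative to the bases available outside dense windows, sites were also denser inside genes than outside, by 1.42 times in ΔlaeA 1 and 1.15 times in ΔlaeA 2, against 1.23 and 1.33 times in WT 1 and WT 2. In ΔlaeA 1 these densities were 764 sites per Mb in genes and 537 per Mb outside. They are per base, and the numbers of cytosines and of covered cytosines inside and outside genes were not measured.

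At least 1 sparse site lay in 8129 of the 9292 annotated genes (87.5%), with a median of 4 distinct sites in those genes, but a recurrent site lay in only 311 genes and a site listed in all 4 libraries in 26. Protein-coding genes held 2.08 sparse sites per kb over all libraries, and the 192 tRNA genes held 25 sites in 16 genes, or 1.49 per kb.

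The CG share was higher among sparse than among dense sites. The share of CG among all cytosines of these windows was not measured, so a preference for CG was not tested. CG sites made up 15.5% and 21.9% of sparse sites in ΔlaeA 1 and ΔlaeA 2 and 18.6% and 19.5% in WT 1 and WT 2, against 11.8% to 12.2% of dense sites. The difference averaged 6.87 ± 2.67 percentage points (SD, n = 4; exact p = 0.125) and grew to 15.4 when at least 3 methylated reads were required. CHH sites were still the majority, between 62.7% and 73.2% of sparse sites.

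Almost no sparse CG site had its opposite-strand cytosine listed in the same library. This was so for 2 of 2971 CG sites in ΔlaeA 1 (0.0673%) and 2 of 2253 in ΔlaeA 2 (0.0888%). In WT 1 it was 0 of 2434, which allows a share of up to 0.123%, and in WT 2 0 of 2550, which allows up to 0.118%. In dense windows the cytosine opposite a listed CG site was listed for 51.7% and 49.1% of sites in the ΔlaeA libraries and 52.1% and 52.8% in the WT libraries. With these 4 exceptions, the sparse CG sites were listed on a single strand within a library, although the position is symmetric. The opposite cytosine is itself a listing, and the rule limits the listings of a sparse window. The contrast with dense windows is therefore not a test.

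Neighbouring listings within 50 bp were rare, between 5.19% and 6.55% of sparse sites per library. Where they occurred, they fell on the same strand in 67.1% and 71.9% of cases in the ΔlaeA libraries and 65.7% and 69.2% in the WT libraries, against 56.4% to 56.7% of neighbouring dense sites. Over all sparse sites the strands were balanced, with 49.5% to 50.4% on the plus strand. Some windows held a cluster in a single library. Windows with 4 or more sites in that library and at most 1 in each other library numbered 173 in ΔlaeA 1 and 15 in ΔlaeA 2, against 53 in WT 1 and 45 in WT 2. These were at most 0.760% of the sparse windows. Sites on 2 methylated reads made up 85.7% and 44.3% of the sites in these clusters in the ΔlaeA libraries, and 73.5% and 76.5% in the WT libraries. Among the other sparse sites the shares were 77.7% and 33.3% in ΔlaeA 1 and ΔlaeA 2, against 49.8% and 52.7% in WT 1 and WT 2.

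The recurrent sites fell into contrasting classes by their distance to dense windows. In the 651 adjoining windows 264 of 2429 sites (10.9%) were in 2 or more lists, against 468 of 52117 (0.898%) in isolated windows. At a distance of 2 windows the share was already 1.31%, and beyond 20 kb it was 0.847%. Within adjoining windows, recurrence was concentrated at the edge. It was 27.7% of the 524 sites within 50 bp of the dense window, 20.5% of those over 50 and up to 100 bp away, 10.2% of those up to 200 bp, 2.46% of those up to 500 bp and 1.74% of those up to 1000 bp, in successive bands. Of the 31 adjoining sites in all 4 lists, 28 lay within 50 bp of the dense window.

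**Figure D3:**
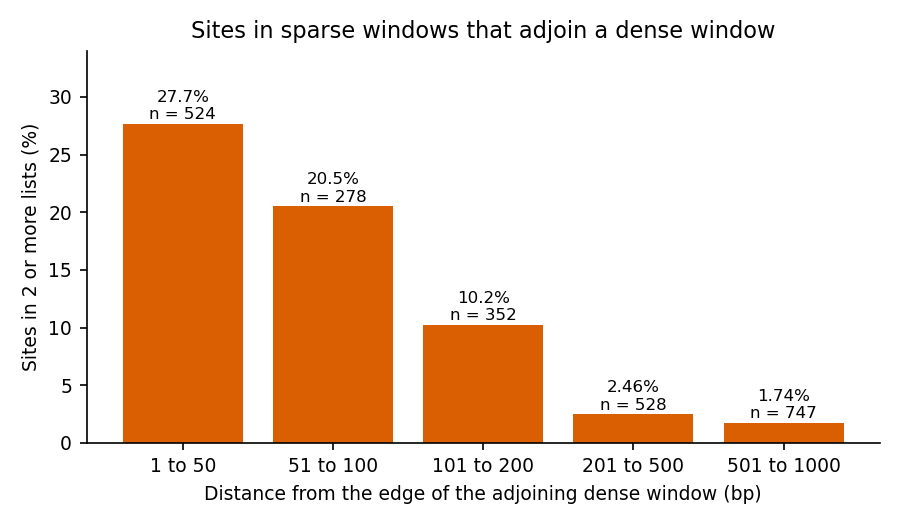
Bars give the percentage of distinct sites in 2 or more lists (vertical axis) by distance in bp from the edge of the dense window (horizontal axis), in the 651 sparse windows that adjoin a dense window. The share was 27.7% within 50 bp and 1.74% beyond 500 bp.

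The pooled level was also higher in adjoining than in isolated windows in 4 of 4 libraries, at 6.87% and 6.39% in ΔlaeA 1, 7.18% and 6.48% in ΔlaeA 2, 7.36% and 6.83% in WT 1 and 7.08% and 6.66% in WT 2. The difference averaged 0.534 ± 0.123 percentage points (SD, n = 4; exact p = 0.125). Among windows with fewer than 5 sites in every library it was 0.000265 percentage points (exact p = 1), and with window borders shifted by 500 bp it was 0.257 ± 0.222 (exact p = 0.25).

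Sequence context separated the recurrent sites of the classes. Among isolated sites, CG made up 18.0% of those in 1 list, 44.9% of those in 2, 79.8% of those in 3 (67 of 84) and 86.7% of those in all 4 (26 of 30). With at least 3 methylated reads in every listing, the shares were 27.7%, 52.4%, 76.4% and 85.7%. Adjoining sites went the other way, with 11.4% CG in 1 list, 8.18% in 2, 6.76% in 3 and 0 of 31 in all 4. In dense windows too the share was lower at sites in more lists, with 20.9%, 17.9%, 14.8% and 9.68%. Among isolated sites in 3 or 4 lists there were 93 CG sites, and the opposite cytosine was listed in none of the 4 libraries at any of them (0 of 93, which allows up to 3.23%). Recurrent isolated CG sites were therefore recurrent on the same single strand. In dense windows the opposite cytosine was listed in some library for 74.2% of the CG sites in 3 or 4 lists. The rule limits the listings of sparse windows, so this contrast is not a test. Adjoining sites in all 4 lists lay in genes in 6 of 31 cases (19.4%), against 44.5% of adjoining sites in 1 list. Isolated sites in all 4 lists lay in genes in 21 of 30 cases, a share of 70% that is close to the 70.2% of isolated sites in 1 list.

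**Figure D4:**
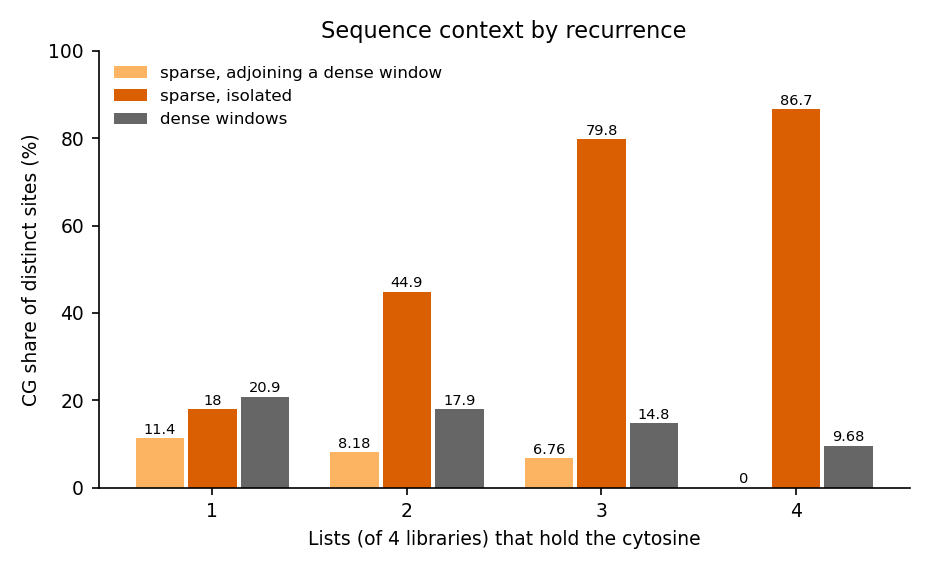
Bars give the percentage of distinct sites in CG context (vertical axis) by the number of lists that hold the site (horizontal axis), for adjoining sparse windows (light orange), isolated sparse windows (orange) and dense windows (grey). The CG share reached 86.7% of the 30 isolated sites in all 4 lists, against 0 of 31 adjoining sites and 9.68% of dense sites.

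The 61 sites in all 4 lists can be compared between strains at the same cytosines. They lay in 56 windows, and their mean level over the libraries had a median of 11.2% (range 6.41% to 31.7%). The pooled level was 13.2% in ΔlaeA 1 and 13.1% in ΔlaeA 2, against 12.5% in WT 1 and 11.7% in WT 2. The means were 13.1% ± 0.0511 in ΔlaeA and 12.1% ± 0.531 in WT (SD, n = 2 each), a difference of 1.04 percentage points (exact two-sided permutation p = 0.333, adjusted 0.333). This direction depended on where the windows began. With window borders shifted by 500 bp, 63 sites qualified, of which 30 were among the 61, and the difference turned to -0.120 percentage points. All 30 isolated sites were kept under the shift and all 31 adjoining sites were replaced.

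Over the 31 adjoining sites in all 4 lists, the pooled levels of the strains were separate, although most single sites overlapped. This split by place was not planned, and its values belong to this placement of windows only. Borders shifted by 500 bp replaced all 31 of these sites. The difference over all sparse sites in 4 lists was then -0.120 percentage points, and the replacing sites alone were not measured. Over all listed adjoining sites the strains overlapped, with 6.87% and 7.18% in ΔlaeA 1 and ΔlaeA 2, against 7.36% and 7.08% in WT 1 and WT 2. At the adjoining sites in all 4 lists the pooled level was 12.3% and 12.8% in the ΔlaeA libraries, against 11.5% and 10.7% in the WT libraries. At the isolated sites in all 4 lists it was 14.4% and 13.4% in ΔlaeA, against 13.8% and 13.1% in WT, where the strains overlapped. Both ΔlaeA levels were above both WT levels at 12 of the 61 sites and below them at 7, whereas over all 1326747 sites in 4 lists the shares were 15.0% above and 19.0% below. The 8 adjoining sites without overlap were all higher in ΔlaeA. Of the 11 isolated sites without overlap, 4 were higher and 7 lower in ΔlaeA.

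**Figure D5:**
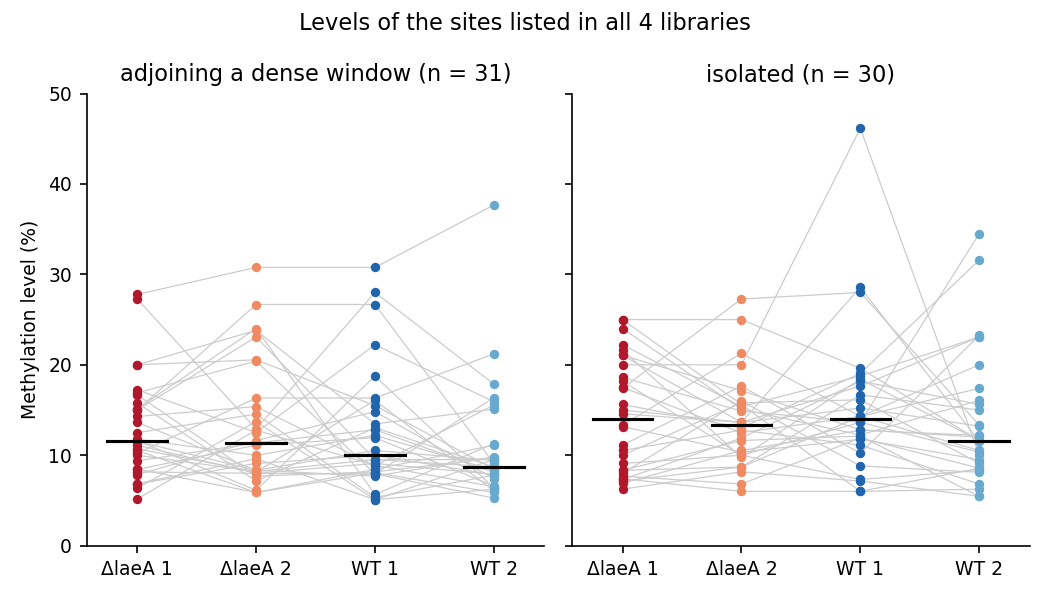
Each point is the methylation level in percent (vertical axis) of a site listed in all 4 libraries, joined by a grey line across the ΔlaeA and WT libraries, with the median as a black bar. The left panel shows the 31 sites in adjoining windows and the right panel the 30 isolated sites, and the ranges of the strains overlap in both.

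No sparse window passed the genome-wide test of a difference between strains. Methylated and unmethylated reads were summed per 1-kb window over sites in all 4 lists, and edgeR's quasi-likelihood F-test was run on 10497 windows and called 493 of them at a Benjamini-Hochberg adjusted p below 0.05, which is 4.70%. Of all tested windows, 3.62% were called lower and 1.08% called higher in ΔlaeA. All 56 sparse windows with such a site entered the test, and 0 were called, with 2 at an unadjusted p below 0.05. DESeq2 called 452 windows, 0 of them sparse, and gave no sparse window an unadjusted p below 0.05. Nearly every sparse window rested on 1 site, so only large differences could have been detected at this depth.

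The sparse window with the smallest adjusted p lay on chromosome 1, 4253001 to 4254000, overlapping the end of MYCTH_63343, which holds the tested site, and 68 kb from the nearest dense window. It was named after its values were seen. Its CG site at 4253210 had levels of 25% and 15.6% in ΔlaeA 1 and ΔlaeA 2, from 28 and 32 reads, against 6.0% and 8.57% in WT 1 and WT 2, from 50 and 35 reads. The ΔlaeA values were both above the WT values, with a log2 odds ratio of 1.68 and an adjusted p of 0.168 by edgeR's quasi-likelihood test. The window held 6, 4, 4 and 2 listed sites in ΔlaeA 1, ΔlaeA 2, WT 1 and WT 2, of which 4 sites recurred, all on the plus strand within 214 bp.

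Of the 5 sites with the highest mean level, 2 lay beside dense windows and 3 were isolated CG sites in genes. Coordinates are those of the lists and gene positions those of assembly ASM22609v1, and intervals are Wilson 95% intervals. The highest was a CHH site on chromosome 7 at 1549995, on the minus strand 6 bp from a dense window and 1091 bp from MYCTH_96869. Its level was 27.8% in ΔlaeA 1 (17.6% to 40.9%) and 30.8% in ΔlaeA 2 (18.6% to 46.4%), against 30.8% in WT 1 (18.6% to 46.4%) and 37.7% in WT 2 (27.2% to 49.5%). It was methylated to a similar extent in all libraries, with overlapping intervals.

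The next was a CG site inside MYCTH_2301088 on chromosome 2 at 2128602, 77 kb from dense methylation. It had 20% in both ΔlaeA libraries (5 of 25 reads each, 8.86% to 39.1%), against 46.2% in WT 1 (6 of 13 reads, 23.2% to 70.9%) and 10% in WT 2 (2 of 20 reads, 2.79% to 30.1%). The WT values lay on both sides of the ΔlaeA values. The neighbouring gene MYCTH_2301089 held another isolated CG site in all 4 lists, at 2134580, also on the minus strand, with 21.1% and 17.1% in the ΔlaeA libraries and 12.8% and 12% in the WT libraries. This neighbour was named after its values were seen.

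The third was a CHG site on chromosome 3 at 511040, 40 bp from a dense window and 84 bp from MYCTH_2303296. Its levels were 27.3% (9.75% to 56.6%) and 12.9% (5.13% to 28.9%) in ΔlaeA 1 and ΔlaeA 2, against 28.0% (14.3% to 47.6%) and 17.9% (7.88% to 35.6%) in WT 1 and WT 2. The fourth was a CG site in MYCTH_2296333 on chromosome 1 at 4199974, with 17.4% (6.98% to 37.1%) and 27.3% (15.1% to 44.2%) in the ΔlaeA libraries, against 28.0% (14.3% to 47.6%) and 13.3% (3.74% to 37.9%) in the WT libraries. The fifth was a CG site in MYCTH_2295601 on chromosome 1 at 3044071, with 18.6% (9.74% to 32.6%) and 14.9% (7.41% to 27.7%) in the ΔlaeA libraries, against 13.6% (6.40% to 26.7%) and 34.5% (19.9% to 52.7%) in the WT libraries. At each of these sites the strains overlapped.

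The sparse windows with the most sites in all 4 lists held 2 each, and the 3 taken first by chromosome and position all adjoined a dense window. On chromosome 1, 10485001 to 10486000, where the nearer of its sites in all 4 lists lay 619 bp from MYCTH_2299745, the libraries listed 8 and 5 sites in ΔlaeA and 6 in each WT library, with pooled levels of 8.33% and 8.79% in ΔlaeA and 9.49% and 7.16% in WT. On chromosome 2, the window 5195001 to 5196000 lay 436 bp from MYCTH_2025626, and its sites in all 4 lists 1396 and 1420 bp from that gene. The window held 6 and 7 sites in ΔlaeA and 7 and 9 in WT, at 8.33% and 8.22% in ΔlaeA and 10% and 10.6% in WT. On chromosome 3, the window 42001 to 43000 lay 1599 bp from MYCTH_2303093. Its sites in all 4 lists were nearest to another gene, MYCTH_2117759, at 2315 and 2309 bp. The window held 6 and 5 sites in ΔlaeA and 5 and 7 in WT, at 7.63% and 9.78% in ΔlaeA and 8.15% and 7.13% in WT. In the windows on chromosomes 2 and 3 the recurrent sites fell within 64 bp.

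Small clusters also recurred far from dense methylation, and these windows too were picked after their values were seen. Besides the window in MYCTH_63343, isolated windows with 4 or more recurrent sites were found on chromosome 3, 4131001 to 4132000, overlapping MYCTH_2093133 and MYCTH_2305389, and on chromosome 5, 3553001 to 3554000, in MYCTH_2140301. The chromosome 3 window held 4 and 9 sites in the ΔlaeA libraries and 6 and 3 in the WT libraries, 4 of them recurrent within 50 bp in the gap between these genes. The chromosome 5 window held 9 sites in each ΔlaeA library, against 5 in WT 1 and 1 in WT 2, at pooled levels of 6.22% and 7.01% in ΔlaeA and 6.30% and 6.85% in WT. Neither held a site in all 4 lists, so neither entered the window test.

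Of all genes, MYCTH_2307708 held the most sparse sites in all 4 lists, namely 2, CHH sites on chromosome 4 at 4379012 and 4379027, 12 and 27 bp from a dense window. The first had 16.7% and 7.69% in the ΔlaeA libraries, against 8.16% and 9.68% in the WT libraries. All others of the 26 genes with such a site had 1 each, and MYCTH_101411, MYCTH_2084292, MYCTH_2122038 and MYCTH_2124155 are named only because their identifiers come first. Their bodies held 7, 17, 4 and 2 distinct sparse sites.

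Of the genes named in the study, 15 were looked up. They comprised laeA and laeB, the carbon catabolite repressor cre-1, the growth regulatory factors grf-1, grf-2 and grf-3, the transcription factors clr-1, clr-2 and xlnR, known as activators of plant cell wall-degrading enzyme genes, pck and fbp of gluconeogenesis, 3 transporters and a phosphoglycerate kinase. Their bodies held 70 distinct sparse sites, with at least 1 in each gene (87.5% of all genes held one) and 0 in 2 or more lists, where the share over all sparse sites was 1.34%, so the absence of a recurrent site is no result about these genes. With 1 kb on each side, there were 143 sites, listed 42 and 19 times in ΔlaeA 1 and ΔlaeA 2 and 42 and 43 times in WT 1 and WT 2. A single one of these recurred. It was a CHG site on chromosome 1 at 8699379, on the minus strand 545 bp from clr-1 (MYCTH_2298863), and it was in all 4 lists. Its levels were 22.2% in ΔlaeA 1 (11.7% to 38.1%) and 15.4% in ΔlaeA 2 (7.25% to 29.7%), against 18.8% in WT 1 (8.89% to 35.3%) and 23.1% in WT 2 (12.6% to 38.3%), with overlapping strains and the nearest dense window 67 kb away.

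At laeA itself (MYCTH_2294559, chromosome 1, 1373921 to 1375913), a sparse window at 1375001 to 1376000 covered the distal part of the gene in the order of coordinates. It held 8 sites in ΔlaeA 1, at depths of 30 to 44 reads and a pooled level of 6.42%, and none in ΔlaeA 2, WT 1 or WT 2. Reads of ΔlaeA 1 thus covered this part of the gene. The windows before it were dense through the ΔlaeA libraries alone, with 50 and 23 sites in ΔlaeA 1 and ΔlaeA 2 between 1374001 and 1375000, against 1 in each WT library. Of these, 28 of 50 in ΔlaeA 1 and 14 of 23 in ΔlaeA 2 had 12 reads or fewer. Over the whole gene body, dense windows included, 62 sites were listed in ΔlaeA 1 at depths of 5 to 161 reads and 25 in ΔlaeA 2 at 5 to 123 reads, against 2 in WT 1 and 1 in WT 2. Reads of both ΔlaeA libraries were thus assigned to parts of the gene. The lists give depth at listed sites only, so coverage of the remaining bases was not measured.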

How the data were processed

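Whole-genome bisulfite libraries of ΔlaeA and WT (2 each, 24 h on glucose) were analysed from the lists the authors deposited. Per list row, the authors gave methylated and unmethylated read counts, the level as a fraction, and a p-value with its adjusted value, capped at 0.01. The submitters' processing notes name Bismark 0.16.3 and FastQC 0.11.5. The genome build, caller and calling model are not given in the sources used here. The deposited table of differential regions (strain means, differences, an area statistic) was not used.

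Windows, members and gene lists were chosen with earlier results of these data known. Levels were recomputed from counts. Gene positions came from a RefSeq table of assembly ASM22609v1 without strand or product names, so lists by product were not built. The share of sparse sites in genes was 68.9% and fell to 61.0% with genes shifted by 2000 bp. Library values were compared by exact permutation (2 against 2 libraries) or sign-flip tests (4 libraries), Benjamini-Hochberg adjusted over 7 tests. Windows with at least 1 four-list site and 10 methylated reads were tested with edgeR 4.0.16 and, as an alternative, DESeq2 1.42.0 (R 4.3.3), after tests on simulated data. The text names the 5 four-list sites of highest mean level with at least 10 reads in each library, the 3 windows and 5 genes with most four-list sites (ties by position or identifier), and 15 genes of the study. The alternatives were a coverage minimum of 10 reads, at least 3 methylated reads, fewer than 5 sites per window, windows shifted by 500 bp, no minimum of methylated reads, a library level offset, a replicate block and leaving out each library. Depth at listed sites limits single-site levels to the intervals given.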

Additional observations from a re-analysis of the deposited data

How the results depend on the processing

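Of 82 values under alternatives, 73 counted as kept. For library values with a permutation or sign-flip test this meant the same sign only, since no p could pass 0.05. Differences that nearly vanished therefore counted as kept. The adjoining minus isolated level went from 0.534 to 0.000265 percentage points with fewer than 5 sites per list. The pooled level difference between strains went from -0.305 to -0.00175 with at least 3 methylated reads. The site count difference of 1623 became -801 with at least 3 methylated reads, and ranged from -2808 to 6054 with each library left out. The share of sparse sites in all 4 lists, 0.112%, was 0.209% with at least 3 methylated reads and 0.0607% with fewer than 5 sites per list, and ranged from 0.217% to 0.290% with a library left out, when 3 lists sufficed. The four-list level difference of 1.04 turned to -0.120 percentage points with windows shifted by 500 bp, which replaced all adjoining sites. With each library left out it ranged from 0.664 to 1.42. With a replicate block edgeR called 545 windows against 493 without it, 0 of them sparse in both. Libraries sharing a number did not deviate together from window to window (r = 0.00179 over 10187 windows, a correlation across windows). This value cannot show a shift common to all windows, and none of these windows was sparse. Leaving out a library changed the count over all windows to between 137 and 495, with 0 sparse windows called each time. A library level offset gave 445 called windows, 251 lower and 194 higher in ΔlaeA, and 0 sparse. The alternative of at least 3 four-list sites left 0 sparse windows and gave no value. Depth limits these results most at single sites.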

Other observations

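The 30 isolated sites in all 4 lists were spread thinly. The median gap between neighbouring ones on a chromosome was 469404 bp and the smallest was 5847 bp, between CG sites on chromosome 2 at 4346954 in MYCTH_2302336 and at 4352801, 569 bp from MYCTH_2302341. The first had levels of 7.69% and 6.82% in ΔlaeA 1 and ΔlaeA 2, against 11.9% and 8.57% in WT 1 and WT 2, and the other 15.6% and 13.0% in the ΔlaeA libraries, against 19.0% and 31.6% in the WT libraries. Both were lower in both ΔlaeA libraries than in either WT library, and neither window was called by edgeR. The gaps that 30 randomly placed sites would have were not measured, so the spacing is a description.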
